A study of Homo sapiens with 6 samples.

Results

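Heat shock genes of the cytosol, mitochondrion and endoplasmic reticulum were followed by RNA sequencing in BT549, an established human line from a breast cancer with mesenchymal features. The libraries came from ENL-treated cells (3) and from control cells (3). The genes were chosen by symbol: HSP90AA1, HSP90AB1, HSPH1, HSPB1, HSPB8, CRYAB, BAG3, HSPD1, SERPINH1 and HSF1, which are 10 of the 19923 genes in the deposited table. What ENL stands for, its dose, its time and any vehicle are not stated in the labels. Separate cultures are not stated either, and the p-values then cover only the spread among these libraries, which may be technical. Fewer cells and less RNA per cell cannot be told apart in such bulk samples.

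Levels are given in CPM, the estimated count of a gene scaled to a common library total, and changes as log2 fold changes of ENL over control with their standard errors. Library totals were 74457932 to 85310759 estimated counts, in which about 4 units stood for 1 sequenced fragment. The mesenchymal marker VIM had 5372 to 6289 CPM in ENL libraries and 2481 to 3267 CPM in control libraries, while the epithelial markers CDH1 and EPCAM stayed at or below 0.358 CPM in every library. The markers were not uniform. FN1 (362.5 to 436.3 CPM in ENL, 266.0 to 302.7 in control) and the scarcer CDH2 (5.83 to 8.90 and 3.34 to 4.84) were also higher in ENL. SPARC was lower (89.39 to 95.34 CPM in ENL, 326.0 to 336.3 in control), and ZEB1 overlapped (62.49 to 140.4 and 49.46 to 93.68). GATA3, expected to be low, had 22.58 to 38.57 CPM in ENL and 25.35 to 32.67 CPM in control libraries. Genes of ribosomal proteins took 12.39% ± 1.33 of the counts in ENL libraries and 7.98% ± 0.23 in control libraries (SD, n = 3 each), and the part of this difference in the results below was not tested. ENL library 3 stood somewhat apart, with a ribosomal share of 10.87% and Spearman correlations across genes of 0.978 and 0.979 with the other ENL libraries, which correlated at 0.981 with each other.

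Heat shock proteins are chaperones that bind unfolded or partly folded proteins. Cytosolic HSP90 matures kinases, steroid receptors and other client proteins, HSP110 exchanges the nucleotide of HSP70, and small heat shock proteins hold unfolded proteins without using ATP. HSF1 is the transcription factor that switches on many of these genes under proteotoxic stress by binding heat shock elements, inverted repeats of the letters GAA, and it is itself held in check by chaperones.

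HSP90AA1, the stress-inducible cytosolic HSP90 gene, fell in ENL-treated cells, as did the collagen chaperone gene SERPINH1, while HSP90AB1, the constitutive HSP90 gene, the co-chaperone gene BAG3, HSF1 and the scarce CRYAB rose. HSPH1, HSPB1 and HSPD1 did not pass the test, and HSPB8 was too low to be tested. Of the 10 genes, 4 were therefore higher and 2 lower at an adjusted p below 0.05, where 38.4% of the 14086 genes tested were called, 20.0% as higher and 18.4% as lower. Of the 9 genes tested, 5 had every ENL library above every control library (26.4% of all genes did) and 3 had every ENL library below (27.6%), against 54.0% of all genes in either direction. CRYAB reached the count minimum only through its ENL libraries, so it had to differ and its call supports nothing. Over all genes 2819 were higher and 2585 lower (52.2% higher, median log2 fold change -0.02), and with scaling by library totals alone 1804 were higher and 3996 lower (31.1% higher, median -0.23). Under that scaling the log2 fold change of HSF1 was 0.30 (adjusted p = 0.0880) and that of HSPD1 was -0.25 (adjusted p = 0.0214), so the call of HSF1 was lost and HSPD1 was called. The other members kept their direction and their side of the threshold there.

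**Figure D1:**
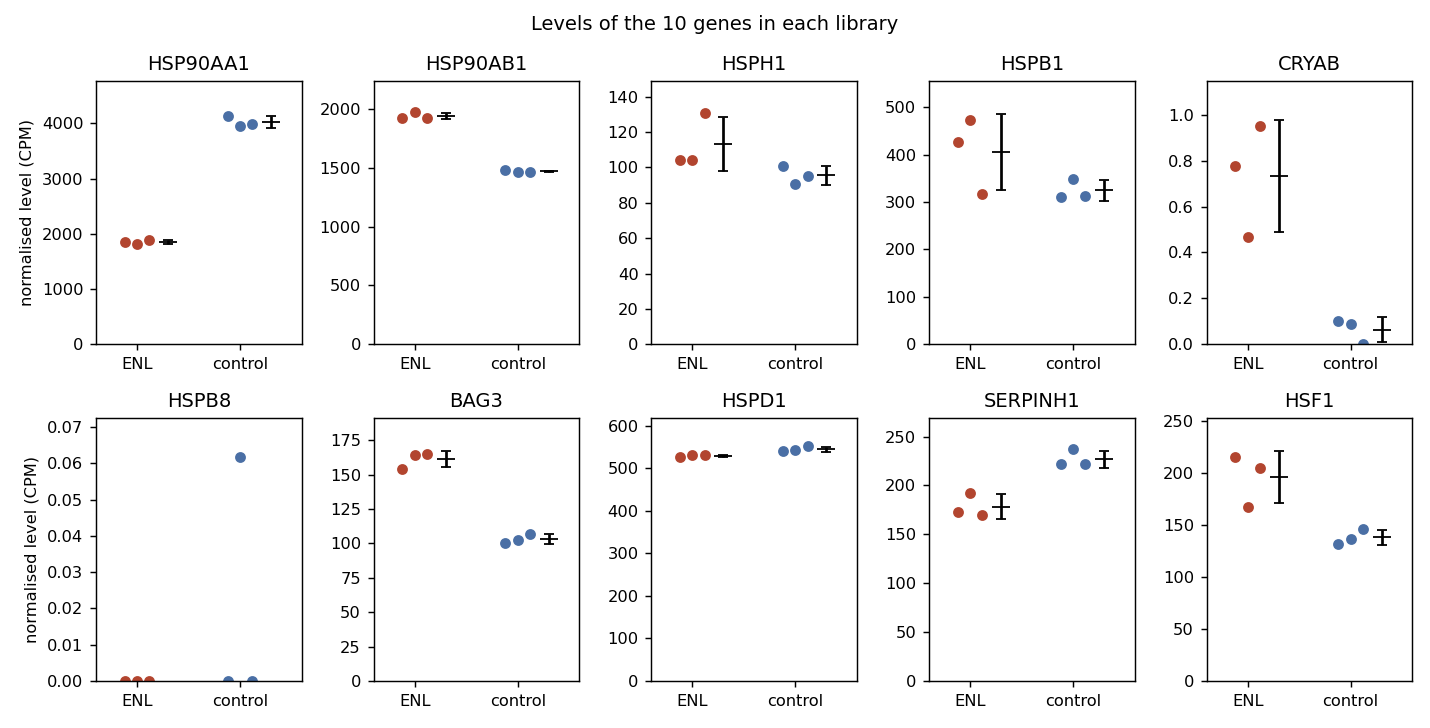
Normalised level in CPM (vertical axes, each from 0) of the 10 genes in the 3 ENL and 3 control libraries, with points for libraries and bars for the mean ± SD of 3 libraries, left out for HSPB8. HSP90AA1 averaged 1846 CPM in ENL and 4025 CPM in control libraries, and HSP90AB1 averaged 1939 CPM in ENL and 1468 CPM in control libraries.

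The promoters are shown because a change in these genes is usually read against their heat shock elements. RefSeq promoter windows (GRCh38.p14, 250 bases before to 50 after an annotated start) were found for 8 of the 10 genes. They were searched for an element of 3 units in a row, GAANNTTCNNGAA or TTCNNGAANNTTC, which are the reverse complements of each other, and of 2 units, GAANNTTC or TTCNNGAA, each its own reverse complement. Every 3-unit element also holds 2-unit ones. The 3-unit element was found in HSP90AA1, HSP90AB1, HSPD1 and SERPINH1, or 4 of 8 genes, against 0.608% of the 27305 genes with a window. HSPB1 and HSPB8 held only the 2-unit element, which 16.2% of all genes hold, and the windows of HSPH1 and BAG3 held neither spelling. For genes with several starts the window with the element is shown, and the gene counts do not tell the starts apart. The stretches below run 5′ to 3′ towards the start, on the minus strand for HSP90AA1 and HSPD1 and on the plus strand for the others, with every 3-unit and 2-unit element in capitals.
HSP90AA1, chr14:102087080-102087172: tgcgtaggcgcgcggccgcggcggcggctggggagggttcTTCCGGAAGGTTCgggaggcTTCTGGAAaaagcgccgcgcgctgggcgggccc
HSP90AB1, chr6:44247738-44247883: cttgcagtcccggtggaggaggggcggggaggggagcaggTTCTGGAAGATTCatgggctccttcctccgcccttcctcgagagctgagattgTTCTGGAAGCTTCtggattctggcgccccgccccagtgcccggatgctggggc
HSPD1, chr2:197500028-197500090: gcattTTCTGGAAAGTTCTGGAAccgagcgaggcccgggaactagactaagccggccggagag
SERPINH1, chr11:75562137-75562229: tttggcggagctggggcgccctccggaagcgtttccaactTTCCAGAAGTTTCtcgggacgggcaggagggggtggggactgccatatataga
HSPB1, chr7:76302451-76302538: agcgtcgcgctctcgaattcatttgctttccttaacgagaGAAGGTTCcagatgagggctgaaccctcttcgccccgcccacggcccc
The 3-unit element of HSP90AA1 lay from 88 to 76 bases before the start, and a separate 2-unit element lay from 68 to 61 bases before it. The 3-unit elements lay between 165 and 100 bases before it in HSP90AB1, which has 2 separate ones, and from 245 to 228 bases before it in HSPD1, where 2 overlap. That of SERPINH1 lay from 76 to 64 bases before the start, and the 2-unit element of HSPB1 from 182 to 175 bases before it. The 4 genes with the 3-unit element therefore included both members that fell, 1 that rose and 1 that did not pass. CRYAB and HSF1, which were also called higher, had no window, so their promoters were not searched.

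HSP90AA1 (chromosome 14, 102080738 to 102139699, minus strand, GENCODE 29 on GRCh38) encodes the HSP90 alpha protein. It had 1844, 1810 and 1884 CPM in ENL libraries 1, 2 and 3, against 4140, 3945 and 3991 CPM in control libraries 1, 2 and 3. The groups lay far apart and the libraries within each group lay close together. The level in ENL was 0.459 of that in control, a log2 fold change of -1.13 ± 0.08 (SE, n = 3 per group; adjusted p = 0.000111). Exons of WDR20 overlap it by 197 bases on the opposite strand. WDR20 had 15.2 ± 2.28 CPM in ENL and 16.2 ± 1.18 CPM in control libraries, and the log2 fold change of both genes together was -1.12. The part of shared reads in the fall was not tested. A fall of at least 2-fold that passed the test was found for 6.02% of all genes.

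HSP90AB1 (chromosome 6, 44246166 to 44253888, plus strand) encodes the HSP90 beta protein, which most cells make without stress. It had 1919, 1971 and 1926 CPM in ENL libraries, against 1476, 1461 and 1466 CPM in control libraries. The groups did not overlap, and the level in ENL was 1.32-fold that in control (log2 fold change 0.40 ± 0.07, adjusted p = 0.00471). The rise was smaller under scaling by library totals, at 0.20 (adjusted p = 0.0417), against a median of -0.23 for all genes there.

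The balance between the cytosolic HSP90 genes was also taken within each library, where it does not depend on scaling, as a ratio of counts that are not per length. HSP90AA1 had 0.961, 0.918 and 0.978 times the estimated count of HSP90AB1 in ENL libraries, against 2.81, 2.70 and 2.72 times in control libraries. ENL libraries thus held the genes at nearly equal counts, and the control libraries held more of HSP90AA1. The log2 ratio averaged -0.07 ± 0.05 in ENL and 1.46 ± 0.03 in control libraries (SD, n = 3 each), a difference of -1.53 (exact permutation test, two-sided, p = 0.1, the smallest that 3 against 3 libraries allow). HSP90AA1 made up 48.8% ± 0.815 of the sum of both genes in ENL libraries and 73.3% ± 0.391 in control libraries. Their summed level was 3785 ± 24.0 CPM in ENL and 5493 ± 109 CPM in control libraries, so the rise of HSP90AB1 was smaller in CPM than the fall of HSP90AA1.

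**Figure D2:**
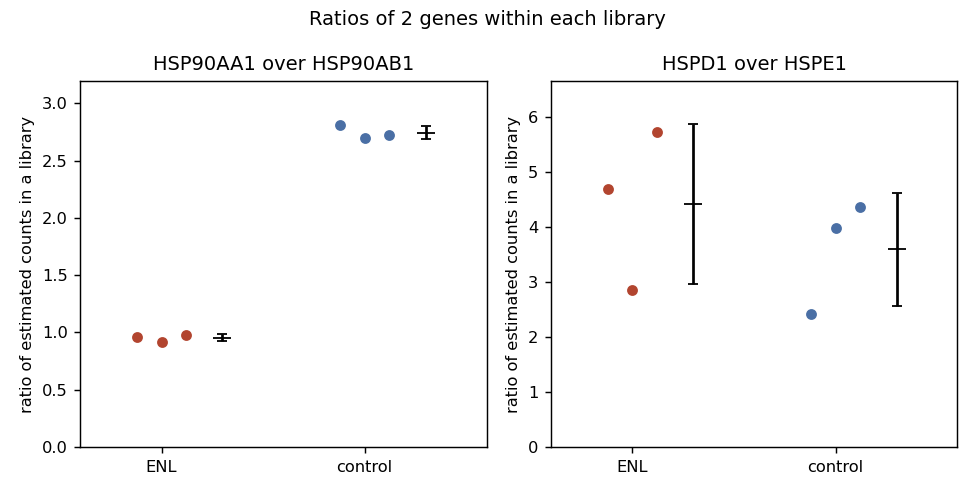
Ratio of the estimated counts of 2 genes within each library (vertical axes, from 0), with points for libraries and bars for the mean ± SD of 3 libraries. The ratio of HSP90AA1 over HSP90AB1 lay between 0.918 and 0.978 in ENL and between 2.70 and 2.81 in control libraries, whereas that of HSPD1 over HSPE1 overlapped between the groups.

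Per length of the longest coding transcript, on the scale of CPM per kilobase, the order of the members differed between the groups at its top. In ENL libraries HSP90AB1 led with 725 ± 10.6, followed by HSP90AA1 with 526 ± 10.6 and HSPB1 with 447 ± 89.1, where the last 2 came within 1 SD of each other. In control libraries HSP90AA1 led with 1150 ± 29, followed by HSP90AB1 with 549 ± 2.84 and HSPB1 with 357 ± 23.5. HSP90AA1 held rank 140 of 14027 genes by this level in ENL and rank 50 in control libraries, and HSP90AB1 held rank 107 in ENL and rank 95 in control libraries. HSPD1 came next, with 215 ± 0.795 in ENL and 222 ± 2.36 in control libraries. Below it ENL libraries had HSF1 (91.6 ± 11.8), BAG3 (62.8 ± 2.38) and SERPINH1 (52.6 ± 3.69), and control libraries had SERPINH1 (66.9 ± 2.55) and HSF1 (64.5 ± 3.41), which lay within their spread, and then BAG3 (40.2 ± 1.38). HSPH1 was lower in both groups, at 21.8 ± 2.95 in ENL and 18.4 ± 1.03 in control libraries, and CRYAB and HSPB8 were near 0.

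HSPH1 (chromosome 13, 31134974 to 31162388, minus strand) encodes HSP110, the nucleotide exchange factor that works with HSP70 on aggregated protein. It had 104.4, 104.3 and 130.9 CPM in ENL libraries, against 101.1, 90.4 and 95.1 CPM in control libraries. Every ENL library lay above every control library, but ENL libraries 1 and 2 did so by little and library 3 stood well above them. The log2 fold change of 0.25 ± 0.11 did not pass (adjusted p = 0.126), and it was 0.14 without ENL library 3 (adjusted p = 0.156). Of the 19 alternatives it passed under 1, a fit corrected for the length and GC content of transcripts, at 0.29 (adjusted p = 0.00718).

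Of the 3 small heat shock members, HSPB1 was by far the most abundant per length. HSPB1 (chromosome 7, 76302544 to 76304295, plus strand) encodes HSP27, a chaperone that also binds actin filaments. It had 427.9, 473.8 and 316.4 CPM in ENL libraries, against 311.3, 349.3 and 313.3 CPM in control libraries. ENL libraries 1 and 2 lay above every control library, and ENL library 3 lay among them. The log2 fold change was 0.32 ± 0.15 (adjusted p = 0.134). Without ENL library 3 it was 0.49 and passed (adjusted p = 0.00648), whereas after the correction for length and GC content it was -0.02 (adjusted p = 0.731). The transcript of HSPB1 is short and rich in GC, with 909 bases and a GC content of 64.5%, so no direction is given for this gene.

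CRYAB (chromosome 11, 111908565 to 111923722, minus strand), the alpha-B crystallin gene, was at the edge of detection. Its estimated counts were 53, 32 and 79 units in ENL libraries, against 9, 7 and 0 units in control libraries, with about 4 units to a fragment. In CPM these were 0.776, 0.470 and 0.951 in ENL and 0.103, 0.0864 and 0 in control libraries. The fitted log2 fold change was 3.51 ± 0.93 (adjusted p = 0.0232), and its size rests on a few fragments in the control libraries. The call was lost without ENL library 1 (adjusted p = 0.0594), ENL library 3 (0.0615), control library 1 (0.0566) or control library 2 (0.0617). Its exons share 626 bases with HSPB2 on the opposite strand, which was listed at 0 in all 6 libraries.

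HSPB8 (chromosome 12, 119178642 to 119221131, plus strand), whose protein works with BAG3, was not detectable at this depth. It had 0 units in 5 libraries and 5 units in control library 2, about 1 fragment. A count of 0 allows up to 3 fragments, or at most 0.176 CPM in an ENL library and 0.141 CPM in control libraries 1 and 3, for counting error only. Of 7 further small heat shock protein genes, HSPB6 and HSPB11 had enough counts to be tested, and neither passed (log2 fold changes 1.01 ± 0.49 and -0.13 ± 0.14, adjusted p = 0.146 and 0.497). HSPB6 was scarce, with 0.904 ± 0.111 CPM in ENL and 0.450 ± 0.222 CPM in control libraries, so the size of its change is uncertain. HSPB11 had 52.4 ± 9.34 CPM in ENL and 57.5 ± 4.54 CPM in control libraries.

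BAG3 (chromosome 10, 119651370 to 119677819, plus strand) links HSP70 and small heat shock proteins to autophagy of damaged proteins. It had 154.4, 164.5 and 165.4 CPM in ENL libraries, against 100.2, 102.8 and 107.2 CPM in control libraries. The groups were well apart and the level in ENL was 1.56-fold that in control (log2 fold change 0.64 ± 0.07, adjusted p = 0.000811). Among members with more than 1 CPM this was the largest rise. In a list of the BAG family and of chaperone-assisted selective autophagy, 6 of 14 measured genes rose (42.9%, beside 20.0% of all genes), 2 fell (14.3%, beside 18.4%) and 6 did not pass, with a median log2 fold change of 0.28 beside -0.02 for all genes. SQSTM1, the autophagy receptor, had 2251 ± 115 CPM in ENL and 697 ± 29.3 CPM in control libraries (1.69 ± 0.08, adjusted p = 3.7e-05). BAG1, another nucleotide exchange factor, rose by 1.14 ± 0.22 on the log2 scale (adjusted p = 0.00764). SYNPO, an actin-binding protein gene, fell by 2.12 on the log2 scale (-2.12 ± 0.12, adjusted p = 5.66e-05), and DNAJB6, a co-chaperone of HSP70, by 0.27 (-0.27 ± 0.08, adjusted p = 0.0342). Only 1 gene was called lower without ENL library 2 or without any 1 control library, since DNAJB6 was lost. Rises were fewer too, with 4 genes called higher without ENL library 1 or without any 1 control library. Library totals, upper-quartile scaling and the test against a 1.2-fold change also gave 4 rises.

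HSPD1 (chromosome 2, 197486581 to 197516737, minus strand) encodes mitochondrial HSP60, which folds imported proteins in a chamber closed by HSP10, the product of the neighbouring gene HSPE1. It had 526.5, 530.2 and 529.6 CPM in ENL libraries, against 539.8, 542.2 and 550.8 CPM in control libraries. Every ENL library lay just below every control library, with a log2 fold change of -0.04 ± 0.07 that did not pass (adjusted p = 0.644). HSPE1 was less even, with 112.5, 185.8 and 92.6 CPM in ENL and 223.2, 136.3 and 126.4 CPM in control libraries (-0.31 ± 0.34, adjusted p = 0.503). The log2 ratio of HSPD1 over HSPE1 averaged 2.09 ± 0.52 in ENL and 1.80 ± 0.46 in control libraries (SD, n = 3 each), a difference of 0.29 (exact permutation test, two-sided, p = 0.5). Their exons share 281 bases on opposite strands, and reads there could be divided between them.

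In the list of mitochondrial chaperones and proteases 4 of 14 genes rose (28.6%, beside 20.0% of all genes), 4 fell (28.6%, beside 18.4%) and 6 did not pass, with a median of -0.05. The protease gene LONP1 (0.77 ± 0.09, adjusted p = 0.000821), the HSP40 gene DNAJA3 (0.69 ± 0.08, adjusted p = 0.00102) and the mitochondrial HSP70 gene HSPA9 (0.69 ± 0.11, adjusted p = 0.0038) rose. The nucleotide exchange factor gene GRPEL1 (-0.64 ± 0.14, adjusted p = 0.011) and the protease genes AFG3L2 (-0.55 ± 0.07, adjusted p = 0.00132) and SPG7 (-0.52 ± 0.17, adjusted p = 0.0468) fell. Without ENL library 1 or 2, or without any 1 control library, 2 genes were called lower, and SPG7 was among the calls lost each time (adjusted p 0.0502 to 0.139). TRAP1, the mitochondrial HSP90, had 257.8 ± 15.7 CPM in ENL and 269.2 ± 8.15 CPM in control libraries and did not pass (-0.06 ± 0.08, adjusted p = 0.546). It was called lower under scaling by library totals (-0.27, adjusted p = 0.0137) and in the fit corrected for length and GC content (-0.13, adjusted p = 0.0313), and it was at 0.00 without ENL library 3 (adjusted p = 0.996).

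SERPINH1 (chromosome 11, 75562056 to 75572783, plus strand) encodes HSP47, a chaperone of the endoplasmic reticulum that binds procollagen. It had 173.2, 192.7 and 169.3 CPM in ENL libraries, against 222.0, 236.9 and 221.8 CPM in control libraries. The groups did not overlap, and the level in ENL was 0.786 of that in control (log2 fold change -0.35 ± 0.08, adjusted p = 0.0138). The call was lost without ENL library 1 (adjusted p = 0.0508) or control library 2 (0.0581), with log2 fold changes of -0.32 in both cases.

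Of 21 genes that fold and modify collagen 11 fell (52.4%, beside 18.4% of all genes), 2 rose (9.52%, beside 20.0%) and 8 did not pass, with a median of -0.36. The list was chosen with earlier results of these data known. PLOD2, a lysyl hydroxylase (-0.99 ± 0.11, adjusted p = 0.000735), LOXL2, a lysyl oxidase (-0.91 ± 0.07, adjusted p = 0.00021), and P3H4, a partner of prolyl 3-hydroxylase (-0.90 ± 0.14, adjusted p = 0.00314), fell. P4HA3, a prolyl 4-hydroxylase subunit (0.77 ± 0.12, adjusted p = 0.00247), and CRTAP (0.31 ± 0.08, adjusted p = 0.0162) rose, but CRTAP was lost without any 1 control library, which left 1 rise. Of 11 collagen chain genes tested, 3 rose (27.3%, beside 20.0% of all genes), 4 fell (36.4%, beside 18.4%) and 4 did not pass (median -0.37). COL4A1 (0.63 ± 0.13) and COL4A2 (0.53 ± 0.07) of basement membrane rose together with COL6A2 (0.36 ± 0.10), and COL5A1 (-0.93 ± 0.09), COL6A3 (-0.51 ± 0.15) and COL12A1 (-0.37 ± 0.10) fell, with adjusted p between 0.000387 and 0.0362. The other fall was that of the scarce COL1A2 (-2.52 ± 0.54, adjusted p = 0.0111). It had 0.571 ± 0.19 CPM in ENL and 3.29 ± 2.24 CPM in control libraries, highest in control library 2 (5.85 CPM). Without ENL library 1 or 2, or without any 1 control library, 2 collagen chain genes were called lower. COL6A3 and COL12A1 were lost each time. The call of COL6A2 was lost without the same libraries (adjusted p 0.0529 to 0.0832), with upper-quartile scaling (0.0627) and with library totals (0.193), where that of COL4A1 was lost too (0.0643).

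HSF1 (chromosome 8, 144291591 to 144314722, plus strand), the regulator of the other members, had 215.8, 167.7 and 205.1 CPM in ENL libraries, against 132.1, 136.1 and 146.3 CPM in control libraries. The groups did not overlap, although the spread in ENL was larger than in control, and the level in ENL was 1.42-fold that in control (log2 fold change 0.51 ± 0.11, adjusted p = 0.0110). In the fit corrected for length and GC content it was 0.32 (adjusted p = 0.133), and the transcript has a GC content of 63.9%. Exons of DGAT1 overlap it by 139 bases on the opposite strand, and the log2 fold change of both genes together was 0.43 (adjusted p = 0.00643). The mRNA level says nothing of the activity of HSF1, which is set by trimer formation and modification of the protein.

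**Figure D3:**
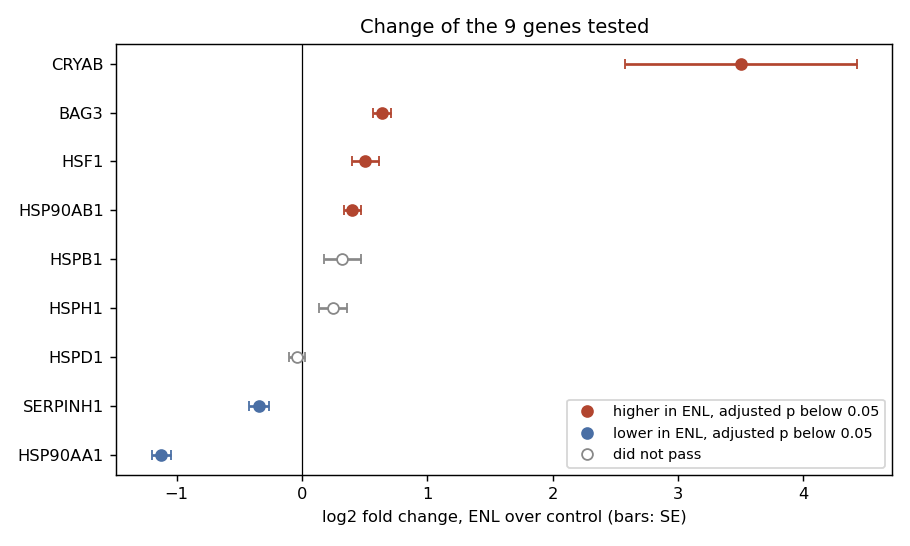
Log2 fold change of ENL over control (horizontal axis, bars for the SE) of the 9 genes tested, filled where the adjusted p was below 0.05. HSP90AA1 lay lowest at -1.13 and SERPINH1 at -0.35, BAG3, HSF1 and HSP90AB1 lay between 0.40 and 0.64, and CRYAB, from a few fragments, lay at 3.51.

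In the list of the HSF family and of HSF1 regulators 5 of 14 genes rose (35.7%, beside 20.0% of all genes), 3 fell (21.4%, beside 18.4%) and 6 did not pass, with a median of -0.10. HSF2 (30.0 ± 6.0 CPM in ENL and 20.6 ± 2.81 CPM in control libraries, adjusted p = 0.0447) and HSF4 (94.4 ± 7.05 CPM in ENL and 70.5 ± 4.32 CPM in control libraries, adjusted p = 0.0110) rose. The call of HSF2 was lost without ENL library 1 or 3 or without any 1 control library (adjusted p 0.0656 to 0.133). Under scaling by library totals those of HSF2 and HSF4 were both lost (0.192 and 0.0801). The call of HSF4 was also lost in the fit corrected for length and GC content (log2 fold change 0.17, adjusted p = 0.111) and against a 1.2-fold change (0.0706). IER5L, related to the HSF1 cofactor gene IER5, had 1015 ± 169 CPM in ENL and 160.6 ± 4.26 CPM in control libraries (2.66 ± 0.14, adjusted p = 4.24e-05), whereas IER5 itself fell (-0.42 ± 0.11, adjusted p = 0.0215), a call lost without ENL library 1 or any 1 control library (0.0546 to 0.0748). The deacetylase genes HDAC6 (0.68 ± 0.13, adjusted p = 0.00641) and SIRT1 (0.58 ± 0.12, adjusted p = 0.00873) rose, and SIRT1 was lost with library totals (0.0678). VCP, an ATPase that extracts ubiquitinated proteins (-0.86 ± 0.07, adjusted p = 0.000284), and RPA1, a single-strand DNA binding protein (-0.46 ± 0.08, adjusted p = 0.0043), fell. Without ENL library 3, 5 genes were called lower, and under scaling by library totals 2 were called higher and 5 lower.

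Among other known HSF1 target genes, 12 of 25 measured rose (48.0%, beside 20.0% of all genes), 3 fell (12%, beside 18.4%) and 10 did not pass, with a median of 0.27. Under each of the 19 alternatives, all fitted to these same libraries, 12 or 13 were called higher. The list was chosen with earlier results of these data known, so its share of rises is not independent support. The stress-inducible HSP70 genes HSPA1A (110.6 ± 10.4 CPM in ENL and 19.0 ± 1.52 CPM in control libraries) and HSPA1B (149.7 ± 19.0 CPM in ENL and 25.0 ± 2.83 CPM in control libraries) rose by 2.55 ± 0.11 and 2.58 ± 0.13 on the log2 scale, although these near-identical copies share reads. The constitutive HSPA8 had 2470 ± 214 CPM in ENL and 891 ± 82.2 CPM in control libraries (1.47 ± 0.11, adjusted p = 0.000154). DNAJB1, an HSP40 gene, rose by 1.61 ± 0.07 (adjusted p = 2.49e-05). IER5, DNAJB6 and DNAJA1 (-0.22 ± 0.07, adjusted p = 0.0343) were the 3 that fell. Only 1 of them was called without ENL library 1 or 2, and 0 without any 1 control library.

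Genes whose promoter window holds a 3-unit element, spelled as in the stretches above, were counted without the members. Of 52 tested, 15 were higher (28.8%, beside 20.0% of all genes), 7 lower (13.5%, beside 18.4%) and 30 did not pass, with a median of 0.13. In all 42.3% of them were called, near the 38.4% of all genes. Without ENL library 2 the counts were 9 and 2, without control library 1 they were 9 and 4, and without control library 2 or 3 they were 9 and 3. With library totals alone 9 were higher and 10 lower, and with upper-quartile scaling 11 were higher and 9 lower. Only 4 of the 52 are in the list of other HSF1 targets: HSPA8 and CHORDC1 rose, and DNAJA1 and DNAJB6 fell. HSPA6, a strictly stress-inducible HSP70 gene chosen here after its values were seen, had 19.2 ± 2.31 CPM in ENL and 2.34 ± 0.161 CPM in control libraries (3.04 ± 0.15, adjusted p = 3.7e-05). HSPA6 is also among the 52, although the list of other HSF1 targets does not hold it.

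Of 30 co-chaperones and paralogs of cytosolic HSP90, 8 rose (26.7%, beside 20.0% of all genes), 4 fell (13.3%, beside 18.4%) and 18 did not pass, with a median of 0.04. The 12 of 30 called were a share near the 38.4% of all genes. CHORDC1, a zinc-binding co-chaperone (43.6 ± 14.6 CPM in ENL and 15.9 ± 0.927 CPM in control libraries, adjusted p = 0.00462), CDC37L1, a relative of the kinase co-chaperone CDC37 (0.80 ± 0.08, adjusted p = 0.000544), and FKBP4, the co-chaperone of steroid receptors (0.75 ± 0.08, adjusted p = 0.000604), rose. HSP90B1, the HSP90 of the endoplasmic reticulum, had 1872 ± 134 CPM in ENL and 2652 ± 29.3 CPM in control libraries (-0.50 ± 0.08, adjusted p = 0.00403). PIH1D1, of the R2TP complex (-0.46 ± 0.13, adjusted p = 0.0322), and the phosphatase gene PPP5C (-0.34 ± 0.08, adjusted p = 0.0167) fell. PIH1D1 was lost without ENL library 1 or any 1 control library (adjusted p 0.0526 to 0.111), against a 1.2-fold change (0.111) and when summed with overlapping genes (0.143). PPP5C was lost without ENL library 1, control library 2 or control library 3 (0.0592 to 0.0716) and against a 1.2-fold change (0.170). AHSA1, which stimulates the ATPase of HSP90, the HSP70 to HSP90 adaptor STIP1, CDC37 and PTGES3 did not pass, with log2 fold changes between -0.15 and 0.03. Without control library 2 or 3 the list had 5 rises and 2 falls, and without ENL library 1 it had 2 falls. Under scaling by library totals it had 4 rises and 9 falls.

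Of 14 genes of the cytosolic chaperonin TRiC and its partner prefoldin, 4 rose (28.6%, beside 20.0% of all genes), 1 fell (7.14%, beside 18.4%) and 9 did not pass, with a median of 0.06. The share called, 35.7%, was near the 38.4% of all genes. The prefoldin genes PFDN4 (0.94 ± 0.19, adjusted p = 0.00806), PFDN5 (0.76 ± 0.10, adjusted p = 0.00164) and PFDN2 (0.61 ± 0.11, adjusted p = 0.00489) and the TRiC subunit gene CCT4 (0.31 ± 0.08, adjusted p = 0.0202) rose. CCT7 (-0.24 ± 0.07, adjusted p = 0.0369) fell. This call was lost without ENL library 1, ENL library 3 or any 1 control library, which left 0 falls, while library totals gave 4 falls. The list had 3 rises without ENL library 1, control library 2 or control library 3. Library totals, upper-quartile scaling and the test against a 1.2-fold change also gave 3 rises.

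**Figure D4:**
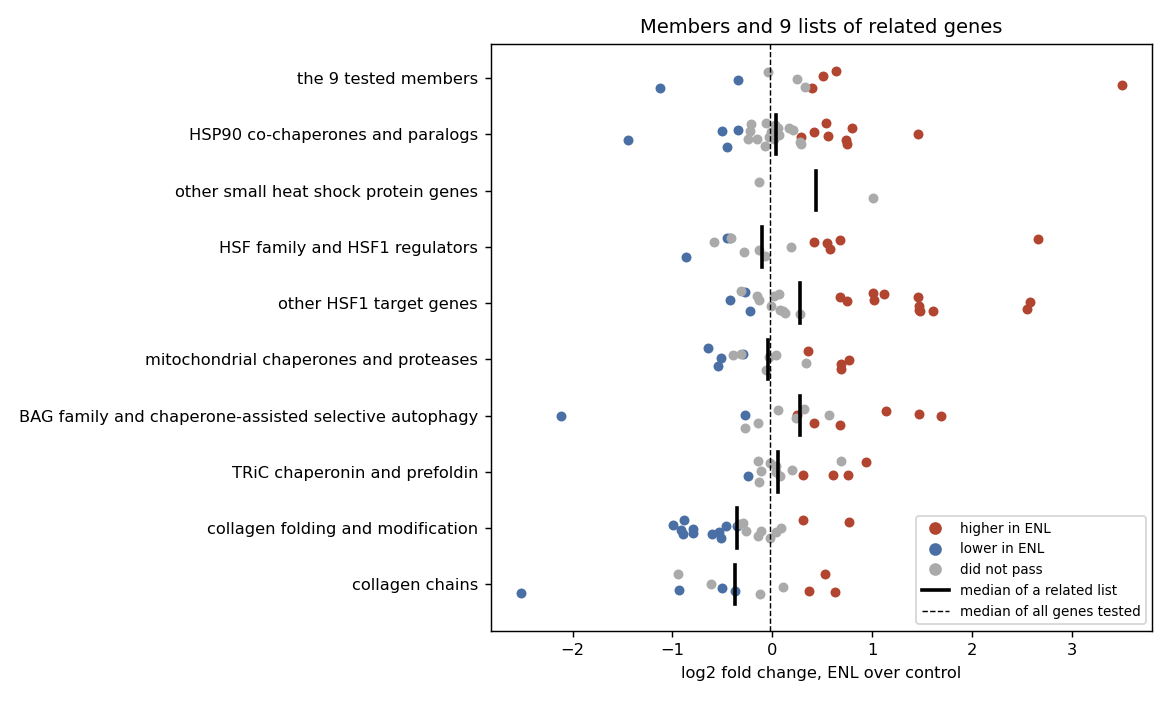
Log2 fold change of ENL over control (horizontal axis) of the tested members and of the genes in 9 related lists, coloured by the call, with a bar at the median of each related list and a dashed line at the median of all genes (-0.02). The other HSF1 targets lie mostly to the right (median 0.27) and genes that fold and modify collagen to the left (median -0.36). All 9 lists were chosen with earlier results of these data known.

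The genes whose levels over the 6 libraries were most like those of HSP90AA1 were SFPQ, an RNA-binding protein gene, CCND1, the cyclin D1 gene, and PDIA4, a disulfide isomerase gene. Their centred log2 levels differed from those of HSP90AA1 by a root mean square of 0.03, 0.03 and 0.05, and their own log2 fold changes were -1.09 ± 0.07, -1.16 ± 0.07 and -1.10 ± 0.07. They were picked by this likeness, so fold changes close to that of HSP90AA1 follow from the choice and show no link between the genes. For CRYAB, the largest fitted rise, the nearest genes NR4A3, HNRNPH2 and FAM110B differed by 0.66, 0.69 and 0.72, and nothing is read from this, since CRYAB had between 0 and 79 units per library.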

How the data were processed

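RNA sequencing of 6 BT549 libraries was analysed, 3 labelled ENL and 3 labelled control. The authors' deposited table gives 1 whole-number estimated count per gene and library, and 70.8% to 73.1% of values from 4 to 43 were multiples of 4 or 1 above them, so 1 fragment was worth about 4 units. Tools named in the submitters' processing notes are STAR, FastQC, DESeq2 and StringTie, with the build hg38, and their versions, their roles, strandedness and the annotation are not given here. Without strand, antisense genes cannot be told apart.

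After filterByExpr with a minimum count of 10 and TMM scaling, the quasi-likelihood F test of edgeR was run (robust, two-sided, group alone), with Benjamini-Hochberg adjustment over all 14086 genes and a threshold of 0.05. The versions were DESeq2 1.42.0, edgeR 4.0.16, limma 3.58.1 and R 4.3.3. The procedure was also run on simulated data with far fewer changed genes than were called here. That run could not test the scaling where many genes change, and nothing above rests on it. Replicate pairs differed by more than sampling noise (chi-square per degree of freedom 77.8 to 201.09 within groups), so all 6 libraries were counted. The chi-square was taken on estimated counts, which enlarges it, since about 4 units stood for 1 fragment. Such a difference does not show that the libraries came from separate cultures. GENCODE 29 gave positions for 19811 genes (99.4%), exon overlaps of at least 100 bases, and the length and GC content of the longest transcript for 14027 tested genes (99.6%). Those set per-length levels and a spline correction.

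The members and the 9 lists were chosen with earlier results of these data known. The text names all members, up to 3 genes per list and direction (largest change, at least 5 CPM, past the threshold), 8 fixed genes and the 3 nearest patterns to the members with the largest rise and fall. Further genes named beside a count (AHSA1, STIP1, CDC37, PTGES3, CCT4, HSPB6, HSPB11, COL1A2 and HSPA6) were chosen after their values were seen. Lists share genes (DNAJB6, HSPA8, IER5, FKBP4 and CHORDC1 among those named).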

Additional observations from a re-analysis of the deposited data

How the results depend on the processing

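The 9 tested members were refitted with library totals, upper-quartile scaling, the size factors of DESeq2, limma-voom, the Wald test of DESeq2, no filter, a filter of 10 CPM in 3 libraries, values divided by 4, glmTreat against 1.2-fold, the mitochondrial genome left out, overlapping genes summed, a length and GC correction, the replicate block and each library left out. HSP90AA1 (log2 fold change -1.33 to -1.08), HSP90AB1 (0.20 to 0.42) and BAG3 (0.44 to 0.68) kept direction and call in all 19. CRYAB lost its call in 5 of 17, SERPINH1 in 3 (adjusted p = 0.153 with glmTreat) and HSF1 in 2. The direction reversed for HSPB1 after the length and GC correction (-0.02). TRAP1 ranged from -0.10 to 0.00 with 1 library left out. Library totals gave 1804 higher and 3996 lower genes, and glmTreat gave 1713 lower genes in all and 1 lower member. With 1 library left out, 1 to 2 members were lower and 3 to 4 higher, and over all genes 2072 to 3156 were higher and 1743 to 2877 lower. The HSP90AA1 to HSP90AB1 difference stayed between -1.55 and -1.50, and that of HSPD1 over HSPE1 between 0.03 and 0.57. The cause of these shifts was not tested. Same-numbered libraries deviated together with correlations of 0.030, 0.046 and 0.080, so the numbers were not taken as pairs, and ENL library 1 correlated best with control library 2 (0.032). The replicate block gave 2631 higher and 2310 lower genes, and ended the calls of CRYAB (adjusted p = 0.0707), PIH1D1 (0.0706), COL6A2 (0.052), COL6A3, HSF2, CCT7, DNAJA1, DNAJB6 and FAM110B. Counts near 0 limit CRYAB and HSPB8.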
